A study of Mus musculus with 8 samples.

Results

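The genes described here are 42 genes of DNA replication and S phase. They cover the licensing of replication origins, the MCM helicase and its activation, the DNA polymerases, the sliding clamp and its loader, Okazaki fragment processing, deoxynucleotide supply, chromatin assembly behind the fork, the E2F transcription factors and the E cyclins. They were chosen by gene symbol and read from 3 deposited gene tables wherever a locus carried exactly that symbol and passed the authors' status flag. All 42 were found among the 23109 such loci of the female KO table and the 22862 of the male KO table, and 41 among the 22762 of the KI table, where E2f1 was merged with its neighbour Necab3.

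The cells were satellite-cell-derived myoblasts of B6/129 mice, grown with 20% fetal calf serum and 2.5 µM 4-OH-tamoxifen, sorted for the TdT reporter and differentiated for 24 h. The female KO library carried UTX-Floxed, Pax7-CreER and Rosa26-Floxed-TdTomato, and the female WT library carried Pax7-CreER and Rosa26-Floxed-TdTomato, so WT cells also held the tamoxifen-dependent Cre driven by Pax7 and the reporter. The other groups were male KO, male WT, female KI and female Ctrl-KI. For these the labels give sex and group only, not the alleles, and the KI allele is not stated. Ages are not given. The 6 groups comprised 8 libraries: 1 each of female KO, female WT, male KO and male WT, and 2 each of KI and Ctrl-KI, which the KI table pools into 1 column per group. The female and male KO comparisons therefore lack replicates, and the KI comparison has no values per library, so no single comparison has a test. It is not stated whether libraries came from separate animals.

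A cell that is to divide first loads the MCM helicase onto origins during G1, with the origin recognition complex, CDC6 and CDT1. CDC45 and the GINS complex then join it to form the active helicase, behind which polymerases copy both strands with PCNA as their clamp. Most of these genes are transcribed at the G1/S boundary by E2F factors, which the retinoblastoma family of pocket proteins holds in check, and myoblasts shut them off when they leave the cell cycle to become muscle.

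Expression was given as FPKM, fragments scaled to transcript length and to mapped fragments, so levels can be set side by side between genes on this per-length scale. Ratios below are log2((FPKM + 1) / (FPKM + 1)), mutant over control, within a table. The added 1 FPKM understates the change of genes with low values. Every 2-fold call below uses these ratios, so a gene called within 2-fold can exceed it in plain FPKM. Pole in females, for example, had a ratio of 0.48 but a plain FPKM ratio of 2.03. The total read counts are not known. The most frequent ratio of mutant to control among values under 0.3 FPKM, which may reflect what 1 read was worth in each column, was 0.661 in the female table (56 of 1901 low values), 0.989 in the male table (141 of 6626) and 0.835 in the KI table (95 of 8460). The median ratio of loci with a mean of at least 1 FPKM was -0.09, -0.03 and -0.04 in the same order. Kdm6a, which encodes UTX, was listed at 16.9 FPKM in female KO and 20.8 FPKM in female WT, at 2.08 FPKM in male KO and 7.87 FPKM in male WT, and at 13.2 FPKM in KI and 12.8 FPKM in Ctrl-KI. The deleted exons are not named in the sources used here, so a value over the whole gene checks the deletion only in part, and in females it differed little. Loci without a gene symbol held 86.2% of all FPKM in male KO and 72.9% in male WT, 77.6% in KI and 57.2% in Ctrl-KI, and none in the female table.

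In male KO cells, 27 of the 42 replication genes were at least 2-fold higher than in male WT cells, against a background of 4.95% of all loci and 9.81% of loci with a mean of at least 1 FPKM. None was at least 2-fold lower (3.24% of loci were). The median ratio of the 42 genes was 1.21, and 40 of them lay above male WT, where 47.8% of loci with a mean of at least 1 FPKM did. Of the 42, 39 had a mean of at least 1 FPKM, of which 37 lay above male WT and 25 were at least 2-fold higher. The largest ratios were those of Mcm3 (2.31), Mcm6 (2.27) and Uhrf1 (2.03). Gins1 (1.04) lay just past the 2-fold line and Tyms (0.998) just short of it. The deposited intervals, whose confidence level is not stated, were wide, reaching 0 for 26 of the 42 genes, and no gene had intervals that stood apart between male KO and male WT (0.302% of loci had, in the higher direction). The unnamed loci took a larger share in male KO, and scaling each column to a total over all loci left 5 genes past 2-fold on the higher side (Mcm3, Mcm6, Uhrf1, Cdt1 and Gins2) and 1 on the lower (E2f8), with a median of 0.47 while the median of all genes moved to -0.71; the members' median minus the gene median was 1.18, against 1.23 before. With a pseudocount of 5 FPKM the count was 11, and the members' median minus the gene median was 0.64. The share of all loci past 2-fold is given for the main setting only. In bulk RNA, more cells in S phase and more RNA per cell cannot be told apart.

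In female KO cells, 2 of the 42 genes were at least 2-fold higher than in female WT cells, Mcm10 and Chaf1b, against 2.4% of all loci and 4.47% of those with a mean of at least 1 FPKM. None was at least 2-fold lower, where 2.35% of loci were. The median ratio was 0.25, and 27 of 42 genes lay above female WT, against 42.7% of loci with a mean of at least 1 FPKM. 37 genes had such a mean, of which 22 lay above female WT, and their median was 0.22. The 18 with a mean of at least 5 FPKM had a median of -0.11. Only Mcm10 had intervals that stood apart (0.359% of loci had, in the higher direction). A pseudocount of 0.1 FPKM gave 6 genes at least 2-fold higher, and one of 5 FPKM gave 1. The members' median minus the gene median was 0.39 with the former and 0.18 with the latter, against 0.34 before. The share of all loci past 2-fold is given for the main setting only.

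In KI cells no replication gene was 2-fold higher or lower than in Ctrl-KI cells, where 1.88% of loci were past 2-fold on the higher side (3.52% of those with a mean of at least 1 FPKM) and 0.435% on the lower. The 41 ratios ran from -0.34 for E2f8 to 0.90 for Rrm1, with a median of 0.12. 31 of 41 genes lay above Ctrl-KI. Of the 31 with a mean of at least 1 FPKM, 22 did, against 41.9% of loci with such a mean. The intervals of the pooled columns were narrower, and Rrm1 was the 1 gene whose intervals stood apart in the higher direction, as 7.16% of loci did. None stood apart in the lower direction, as 2.31% of loci did. The side on which the KI ratios fell depended on the scaling: with a total over all loci their median was -0.42, that of all genes -0.78, and the members' median minus the gene median 0.35, against 0.16 before. E2f8 was then the 1 gene past 2-fold on the lower side.

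**Figure D1:**
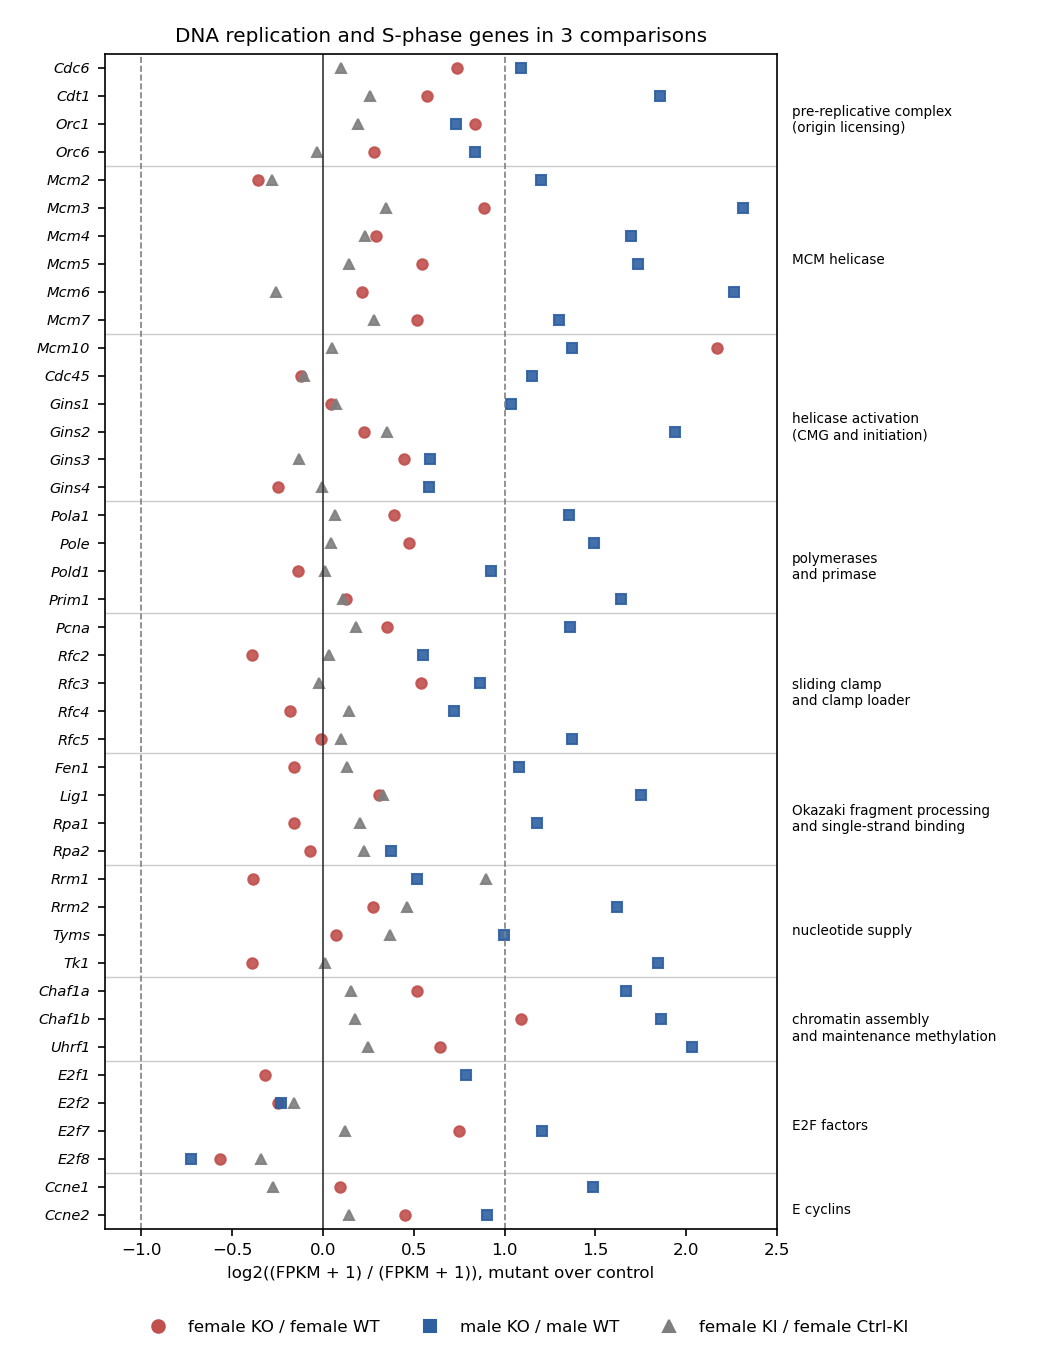
Ratio of each of the 42 genes, log2 on the x axis, grouped by role from top to bottom, with circles for female KO over female WT, squares for male KO over male WT and triangles for KI over Ctrl-KI; dashed lines mark 2-fold. Most squares lie beyond the right-hand line (27 of 42), the circles centre on 0.25 and the triangles on 0.12, and E2f2 and E2f8 lie left of 0 in all 3 comparisons. Scaled to a total over all loci, 5 squares would lie beyond the right-hand line and 1 beyond the left-hand line. The circles would then centre on 0.45 and the triangles on -0.42.

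The 2 KO tables were made from different libraries with their own controls, so each gene had a value in either sex. 27 genes were above their control in both sexes, 2 were below it in both (E2f2 and E2f8), and 13 were below it in females and above it in males. The male ratio was the larger one for 39 of 42 genes; the exceptions were Mcm10, Orc1 and E2f8. With a total over loci with a symbol it was again 39 of 42, but with a total over all loci it was 25 of 42, and the female and male medians of the 42 genes were then 0.45 and 0.47. 22 genes were above the control in all 3 tables (1 with a total over all loci), and E2f2 and E2f8 were below it in all 3. No share over all loci is given for these counts across tables, so they cannot be set against a background. The median ratio of loci with a mean of at least 1 FPKM was -0.09 in females and -0.03 in males. With a total over all loci it was 0.09 in females and -0.71 in males. With a total over all loci, or over loci with a symbol, E2f2 and E2f8 stayed below the control in each table. By role, the male medians stayed above 0 under both scalings except that of the E2F genes, which was -0.38 with a total over all loci. The female medians of the clamp and its loader, of Okazaki fragment processing and of nucleotide supply, which were -0.01, -0.12 and -0.16, moved to 0.14, 0.05 and 0.01. Whether the male and female responses differ could not be tested with 1 library per group.

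**Figure D2:**
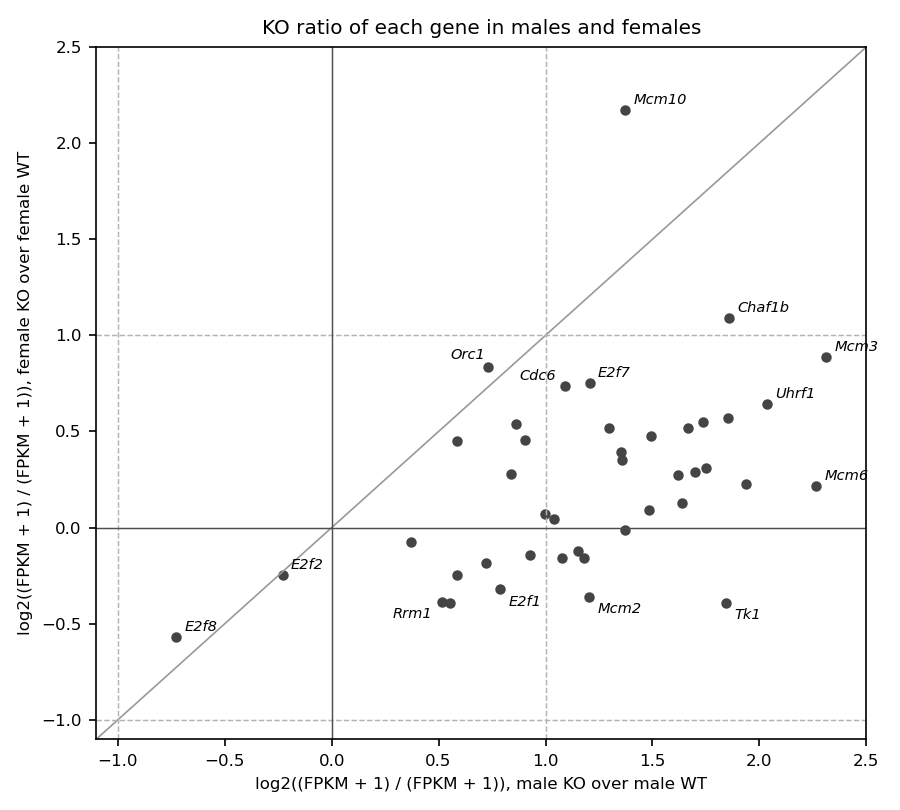
Ratio of each of the 42 genes in males (x axis, male KO over male WT) and females (y axis, female KO over female WT), both log2, with the diagonal of equal ratios and dashed lines at 2-fold. 39 of 42 points lie below the diagonal (25 of 42 when scaled to a total over all loci), Mcm10 and Chaf1b are past 2-fold in both sexes (Mcm3 alone with that scaling, where the male ratios of Mcm10 and Chaf1b are 0.60 and 0.95), and E2f2 and E2f8 are the points left of and below 0.

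The joint test treated the female and the male ratio as repeat measurements of the KO effect. The gap between the sexes gave 1 residual degree of freedom, and limma drew this error towards a trend over all genes. The total was 4.95 degrees of freedom, so the moderated SE rests mostly on that trend and not on a gene's own gap. In limma with Benjamini-Hochberg adjustment over 11278 genes, no gene rose and no gene fell at an adjusted p of 0.05 (0% of genes in either direction), so none of the 39 replication genes tested did. Orc1, Cdc6 and E2f7, whose means over the 4 columns were under 1 FPKM, were not in this fit. At an unadjusted p under 0.05 the limma fit had 12 of the 39 higher and 1 lower, against 922 higher and 1008 lower among all genes. The smallest adjusted p among the 39 was that of Mcm10, with a mean ratio of 1.77 ± 0.33 (moderated SE, adjusted p = 0.152) in limma. Chaf1b had 1.48 ± 0.33 (moderated SE, adjusted p = 0.163), Mcm3 1.60 ± 0.40 (moderated SE, adjusted p = 0.182) and Uhrf1 1.34 ± 0.41 (moderated SE, adjusted p = 0.218) in the same limma fit. E2f8, the gene on the lower side, had -0.65 ± 0.23 (moderated SE, adjusted p = 0.261). Scaled to a total over all loci, the limma fit called 135 genes, of which 1 was a replication gene that rose, Mcm10 (adjusted p = 0.012). The ratios of Mcm10 were then 2.67 in females and 0.60 in males, a male minus female ratio of -2.08, against -0.80 before. That fit tested against 0, while the median of all genes was 0.09 in females and -0.71 in males. Over the alternatives run, the smallest adjusted p of a replication gene in limma lay between 0.012 and 0.663.

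The promoters of the 6 genes whose smaller ratio of the 2 sexes was the largest, among genes with a sequence, are shown because these genes were higher in both KO libraries, and that of E2f8 because it was lower in both. Each runs from 250 bases before the start site to 50 after it in RefSeq on GRCm38.p6. The E2F motif was searched as TTTGGCGC, TTTCCCGC, TTTCGCGC and TTTGCCGC on both strands, and matches are in capitals. The windows are Mcm10 chr2:5012742-5013041 (minus strand), Chaf1b chr16:93883651-93883950 (plus strand), Mcm3 chr1:20820263-20820562 (minus strand), E2f7 chr10:110745189-110745488 (plus strand), Cdc6 chr11:98907901-98908200 (plus strand), Orc1 chr4:108579204-108579503 (plus strand) and E2f8 chr7:48881547-48881846 (minus strand).
Mcm10: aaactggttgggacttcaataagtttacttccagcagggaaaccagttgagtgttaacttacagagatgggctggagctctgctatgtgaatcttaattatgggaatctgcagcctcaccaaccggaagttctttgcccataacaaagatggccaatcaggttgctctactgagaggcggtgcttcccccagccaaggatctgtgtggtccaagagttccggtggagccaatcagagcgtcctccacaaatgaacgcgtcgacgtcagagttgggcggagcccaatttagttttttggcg
Chaf1b: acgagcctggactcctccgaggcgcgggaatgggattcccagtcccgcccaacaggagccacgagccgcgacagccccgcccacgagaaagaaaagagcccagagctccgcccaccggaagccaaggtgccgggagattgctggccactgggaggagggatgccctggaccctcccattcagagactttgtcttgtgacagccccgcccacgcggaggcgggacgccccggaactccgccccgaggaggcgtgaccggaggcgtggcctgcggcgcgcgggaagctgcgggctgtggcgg
Mcm3: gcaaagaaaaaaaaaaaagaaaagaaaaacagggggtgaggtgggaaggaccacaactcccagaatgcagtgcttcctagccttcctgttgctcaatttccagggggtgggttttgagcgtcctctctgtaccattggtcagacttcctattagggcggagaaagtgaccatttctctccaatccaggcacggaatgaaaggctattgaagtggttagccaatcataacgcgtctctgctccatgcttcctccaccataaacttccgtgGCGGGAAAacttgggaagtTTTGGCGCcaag
E2f7: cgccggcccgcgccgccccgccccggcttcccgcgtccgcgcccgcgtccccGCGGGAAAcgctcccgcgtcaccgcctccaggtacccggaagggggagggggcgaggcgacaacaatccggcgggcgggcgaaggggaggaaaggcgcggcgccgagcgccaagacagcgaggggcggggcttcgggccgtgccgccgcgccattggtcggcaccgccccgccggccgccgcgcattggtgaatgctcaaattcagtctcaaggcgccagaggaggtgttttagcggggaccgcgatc
Cdc6: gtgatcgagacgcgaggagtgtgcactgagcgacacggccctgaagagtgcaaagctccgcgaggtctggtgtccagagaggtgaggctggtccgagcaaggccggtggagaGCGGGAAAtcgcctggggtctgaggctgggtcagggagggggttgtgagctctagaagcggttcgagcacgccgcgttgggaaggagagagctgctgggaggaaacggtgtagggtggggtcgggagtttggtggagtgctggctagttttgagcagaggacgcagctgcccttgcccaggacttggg
Orc1: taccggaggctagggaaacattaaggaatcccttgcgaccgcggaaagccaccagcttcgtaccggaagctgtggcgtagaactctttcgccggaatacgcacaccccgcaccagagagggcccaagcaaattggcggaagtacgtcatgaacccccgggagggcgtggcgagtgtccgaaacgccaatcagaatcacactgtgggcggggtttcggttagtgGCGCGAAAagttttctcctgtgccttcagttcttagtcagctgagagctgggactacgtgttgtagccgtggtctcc
E2f8: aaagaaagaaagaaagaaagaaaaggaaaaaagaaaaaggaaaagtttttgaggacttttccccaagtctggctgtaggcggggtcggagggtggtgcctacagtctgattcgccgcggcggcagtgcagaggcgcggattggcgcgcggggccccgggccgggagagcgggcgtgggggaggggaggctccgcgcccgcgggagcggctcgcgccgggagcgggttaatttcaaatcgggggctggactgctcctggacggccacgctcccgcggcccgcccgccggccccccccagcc

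With position 0 as the first base after the start site, the matches began at 19 and 38 in Mcm3, at -198 in E2f7, at -138 in Cdc6 and at -27 in Orc1; the windows of Mcm10, Chaf1b and E2f8 had no match. The Mcm10 window ended in tttggcg, which is TTTGGCGC without its last letter, so a match across that edge would be missed. A promoter sequence was found for 35 of the 42 genes, and 15 of the 35 had a match in at least 1 promoter. Counted by promoter, 15 of 41 (36.6%) held a match, against 744 of 32851 promoters of all genes (2.26%). TTTGAA, the core of an element known from cell cycle genes, was in 6 of the 41 (14.6%), against 17.9% of all promoters; its letters do not overlap those of the E2F motif. These are letter matches in windows, not measured sites, and many of the 42 are known E2F targets, so this share is a description of the list. Of the 6 genes printed for their higher values, 4 held a match, and so did E2f2, which was lower in both KO libraries.

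Origin licensing was represented by Orc1 and Orc6, subunits of the origin recognition complex, by Cdc6, which loads the helicase, and by Cdt1, its partner. The median ratio of the 4 was 0.66 in females, 0.97 in males and 0.15 in the KI table. Cdt1 was listed at 16.1 FPKM in female KO against 10.5 in female WT, 16.6 in male KO against 3.86 in male WT and 4.77 in KI against 3.81 in Ctrl-KI, with ratios of 0.57 (female), 1.85 (male) and 0.26 (KI). All 4 genes were above their control in both KO comparisons, and in males Cdt1 and Cdc6 were past 2-fold. Cdc6 had 1.25 FPKM in female KO against 0.352 in female WT, 1.65 in male KO against 0.241 in male WT and 0.227 in KI against 0.147 in Ctrl-KI, and ratios of 0.74 (female), 1.09 (male) and 0.10 (KI). Orc1 had 1.59 FPKM in female KO against 0.451 in female WT, 1.27 in male KO against 0.364 in male WT and 0.538 in KI against 0.343 in Ctrl-KI, and ratios of 0.84 (female), 0.73 (male) and 0.20 (KI). Both were low in abundance in every column, so the added 1 FPKM weighs on their ratios. Orc6 was more abundant, with 13.5 FPKM in female KO against 10.9 in female WT, 14.4 in male KO against 7.63 in male WT and 7.84 in KI against 8.05 in Ctrl-KI, and ratios of 0.28 (female), 0.84 (male) and -0.03 (KI).

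The MCM helicase is a ring of 6 subunits, Mcm2 to Mcm7, that unwinds DNA ahead of the fork. In male KO cells all 6 were at least 2-fold higher than in male WT, with a median ratio of 1.72; in females the median was 0.41 and none was past 2-fold, and in the KI table it was 0.19. Mcm3 (mm9 chr1:20793095-20810294) had the largest male ratio of all 42 genes, and Mcm6 had it with a total over all loci. Its level was 13.1 FPKM in male KO (deposited interval 3.33 to 22.9), against 1.84 FPKM in male WT (interval 0 to 3.83). In females it was 5.08 FPKM in female KO and 2.29 FPKM in female WT, and in the KI comparison 1.63 FPKM in KI and 1.06 FPKM in Ctrl-KI, with ratios of 0.89 (female), 2.31 (male) and 0.35 (KI). Mcm6 had 4.82 FPKM in female KO against 4.01 in female WT, 20.4 in male KO against 3.45 in male WT and 2.06 in KI against 2.66 in Ctrl-KI, with ratios of 0.22 (female), 2.27 (male) and -0.26 (KI). The female pair lay close together, and in KI the gene was on the lower side. Mcm4 had 4.08 FPKM in female KO against 3.15 in female WT, 19.0 in male KO against 5.16 in male WT and 5.13 in KI against 4.22 in Ctrl-KI, with ratios of 0.29 (female), 1.70 (male) and 0.23 (KI). Mcm5, the least abundant subunit in male KO, had 1.90 FPKM in female KO against 0.982 in female WT, 8.88 in male KO against 1.97 in male WT and 1.55 in KI against 1.31 in Ctrl-KI, with ratios of 0.55 (female), 1.74 (male) and 0.14 (KI). Mcm2 was the only subunit that lay below the control both in female KO and in KI. It had 2.47 FPKM in female KO against 3.45 in female WT, 20.5 in male KO against 8.34 in male WT and 7.23 in KI against 9.01 in Ctrl-KI, with ratios of -0.36 (female), 1.20 (male) and -0.28 (KI). Mcm7 had 36.2 FPKM in female KO against 25.0 in female WT, 30.4 in male KO against 11.8 in male WT and 11.1 in KI against 8.95 in Ctrl-KI, with ratios of 0.52 (female), 1.30 (male) and 0.28 (KI). The Mcm7 locus also holds the microRNA genes Mir25, Mir93 and Mir106b, in the male and KI tables also Cops6, Ap4m1 and Taf6, and its male intervals reached 0 in both columns, so its values are uncertain.

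**Figure D3:**
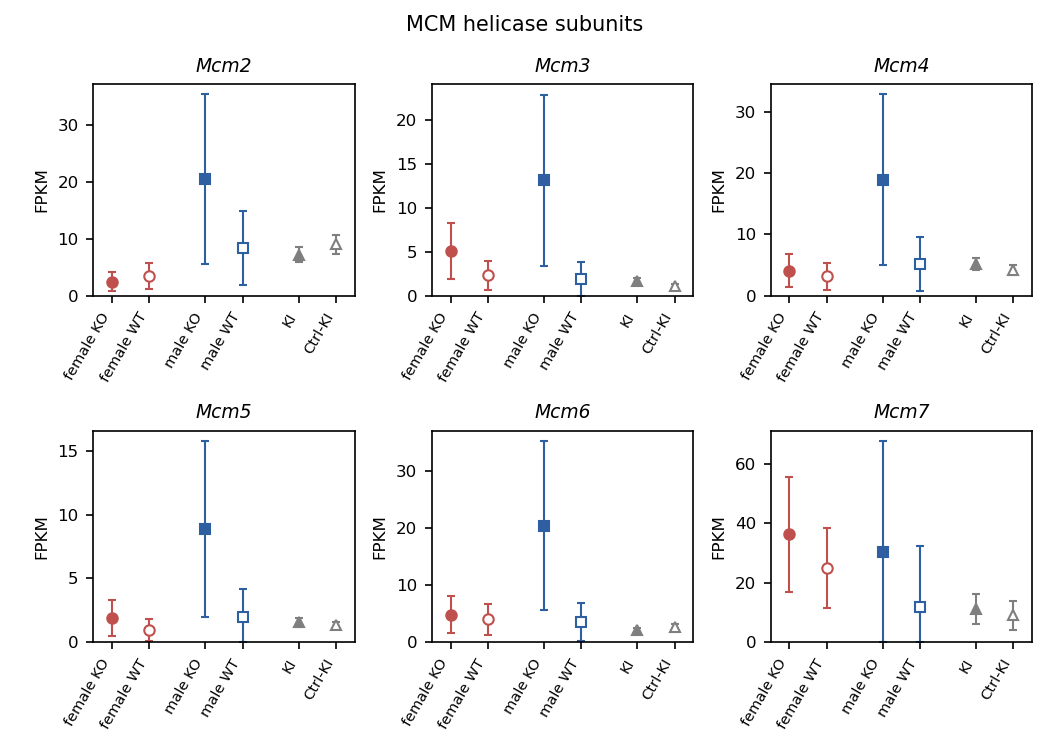
FPKM of the 6 MCM subunits in the 6 deposited columns, with the authors' lower and upper bounds as bars; filled symbols are KO or KI and open symbols their controls. The male KO value is above male WT in all 6 panels, the bars of the 2 overlap in each, and Mcm2 is lower in female KO and in KI than in the matching control.

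Mcm10, Cdc45 and the GINS subunits Gins1 to Gins4 turn the loaded ring into a working helicase. Their median ratio was 0.14 in females, 1.10 in males and 0.02 in the KI table. Mcm10 (mm9 chr2:4911770-4933837) was the gene with the largest female ratio. It had 9.03 FPKM in female KO (deposited interval 4.04 to 14.0), against 1.22 FPKM in female WT (interval 0.248 to 2.20). These intervals do not overlap, and were the only KO and WT intervals among the 42 genes that did not. In males Mcm10 had 2.31 FPKM in male KO (deposited interval 0.0268 to 4.60), against 0.282 FPKM in male WT (interval 0 to 0.637), and in the KI comparison 0.290 FPKM in KI and 0.245 FPKM in Ctrl-KI, with ratios of 2.17 (female), 1.37 (male) and 0.05 (KI). Its level was thus higher in both KO libraries and below 1 FPKM in male WT, KI and Ctrl-KI. Cdc45 had 2.73 FPKM in female KO against 3.05 in female WT, 5.07 in male KO against 1.73 in male WT and 1.24 in KI against 1.41 in Ctrl-KI, with ratios of -0.12 (female), 1.15 (male) and -0.11 (KI). It was past 2-fold in male KO only. Gins1 had 0.926 FPKM in female KO against 0.867 in female WT, 3.19 in male KO against 1.04 in male WT and 1.09 in KI against 0.989 in Ctrl-KI, with ratios of 0.04 (female), 1.04 (male) and 0.07 (KI). Gins2 shares its locus with Gse1 and had 1.46 FPKM in female KO against 1.10 in female WT, 8.35 in male KO against 1.44 in male WT and 1.70 in KI against 1.11 in Ctrl-KI, with ratios of 0.23 (female), 1.94 (male) and 0.35 (KI) and intervals that reached 0 in every column. Its values are uncertain. Gins3 had 1.49 FPKM in female KO against 0.824 in female WT, 1.89 in male KO against 0.921 in male WT and 0.854 in KI against 1.03 in Ctrl-KI, with ratios of 0.45 (female), 0.59 (male) and -0.13 (KI). Gins4, the most abundant GINS subunit, had 7.31 FPKM in female KO against 8.86 in female WT, 14.1 in male KO against 9.09 in male WT and 8.88 in KI against 8.92 in Ctrl-KI, with ratios of -0.25 (female), 0.59 (male) and -0.01 (KI). In males the 4 GINS genes were thus higher in KO to unequal degrees, 2 of them within 2-fold.

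Pola1 and Prim1 encode subunits of the polymerase alpha and primase complex that starts each new strand, and Pole and Pold1 the catalytic subunits of the polymerases that extend it. The median ratio of the 4 was 0.26 in females, 1.42 in males and 0.06 in the KI table. Prim1 had 2.90 FPKM in female KO against 2.56 in female WT, 4.25 in male KO against 0.683 in male WT and 1.06 in KI against 0.912 in Ctrl-KI, with ratios of 0.13 (female), 1.64 (male) and 0.11 (KI). Pole had 1.24 FPKM in female KO against 0.610 in female WT, 3.40 in male KO against 0.567 in male WT and 0.513 in KI against 0.465 in Ctrl-KI, with ratios of 0.48 (female), 1.49 (male) and 0.05 (KI). Pola1, which is X-linked like Kdm6a, had 1.06 FPKM in female KO against 0.566 in female WT, 3.25 in male KO against 0.662 in male WT and 0.773 in KI against 0.692 in Ctrl-KI, with ratios of 0.39 (female), 1.35 (male) and 0.07 (KI). These 3 were past 2-fold in male KO only and had less than 1 FPKM in male WT. Pold1 was the exception, at 7.03 FPKM in female KO against 7.85 in female WT, 5.47 in male KO against 2.41 in male WT and 2.51 in KI against 2.48 in Ctrl-KI, with ratios of -0.14 (female), 0.93 (male) and 0.01 (KI).

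Pcna, the sliding clamp that tethers the polymerases to DNA, was among the most abundant of the 42 genes in every column. It was listed at 42.5 FPKM in female KO against 33.1 in female WT, 64.2 in male KO against 24.4 in male WT and 26.9 in KI against 23.6 in Ctrl-KI, with ratios of 0.35 (female), 1.36 (male) and 0.18 (KI). The clamp loader genes Rfc2 to Rfc5 had lower levels, and the 5 genes of the clamp and its loader had a median of -0.01 in females, 0.86 in males and 0.10 in the KI table. Rfc5 had 2.95 FPKM in female KO against 2.98 in female WT, 8.26 in male KO against 2.57 in male WT and 2.60 in KI against 2.36 in Ctrl-KI, with ratios of -0.01 (female), 1.37 (male) and 0.10 (KI), and was the only loader gene past 2-fold in males. Rfc3 had 10.7 FPKM in female KO against 7.05 in female WT, 12.7 in male KO against 6.55 in male WT and 6.60 in KI against 6.72 in Ctrl-KI, with ratios of 0.54 (female), 0.86 (male) and -0.02 (KI). Rfc2 had 6.60 FPKM in female KO against 8.98 in female WT, 15.5 in male KO against 10.3 in male WT and 10.3 in KI against 10.1 in Ctrl-KI, with ratios of -0.39 (female), 0.55 (male) and 0.03 (KI). In the KI table the loci of Rfc2, Rfc5 and Fen1 each hold another entry as well. The other entry at Rfc2 merges Eif4h and Lat2. At Rfc5 it merges Wsb2 with Rfc5 itself, so the KI values given for Rfc5 may be only part of that gene. The female KO value of Rfc2 was below female WT, while Rfc3 was above it. Rfc4 shares its locus with Eif4a2, which encodes a translation initiation factor, and with small nucleolar RNAs, so it is uncertain; its ratios were -0.18 (female), 0.72 (male) and 0.14 (KI).

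Fen1 and Lig1 trim and join Okazaki fragments, and Rpa1 and Rpa2 coat single-stranded DNA. Their median ratio was -0.12 in females, 1.13 in males and 0.21 in the KI table. Lig1, whose locus also holds 6330408A02Rik, had 3.01 FPKM in female KO against 2.24 in female WT, 5.82 in male KO against 1.02 in male WT and 1.26 in KI against 0.795 in Ctrl-KI, with ratios of 0.31 (female), 1.75 (male) and 0.33 (KI). Rpa1 had 7.73 FPKM in female KO against 8.76 in female WT, 27.6 in male KO against 11.6 in male WT and 12.4 in KI against 10.6 in Ctrl-KI, with ratios of -0.16 (female), 1.18 (male) and 0.21 (KI). Fen1 had 2.68 FPKM in female KO against 3.11 in female WT, 11.3 in male KO against 4.81 in male WT and 5.13 in KI against 4.60 in Ctrl-KI, with ratios of -0.16 (female), 1.08 (male) and 0.13 (KI). In females Fen1 and both RPA subunits were below WT, with overlapping intervals. Rpa2 had the smallest male ratio of this role, at 10.6 FPKM in female KO against 11.2 in female WT, 9.02 in male KO against 6.74 in male WT and 8.01 in KI against 6.71 in Ctrl-KI, with ratios of -0.07 (female), 0.37 (male) and 0.22 (KI).

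Rrm1 and Rrm2 form ribonucleotide reductase, Tyms makes thymidylate and Tk1 salvages thymidine. Their median ratio was -0.16 in females, 1.31 in males and 0.42 in the KI table. The KI median was -0.23 with a total over all loci. Rrm1 (mm9 chr7:109590209-109618285) had 25.6 FPKM in KI (deposited interval 20.8 to 30.4), against 13.2 FPKM in Ctrl-KI (interval 10.7 to 15.8), intervals that stood apart. The same gene had 18.8 FPKM in female KO and 24.8 FPKM in female WT, and 28.3 FPKM in male KO and 19.5 FPKM in male WT, with ratios of -0.38 (female), 0.52 (male) and 0.90 (KI). Rrm1 was thus below WT in female KO and above the control in male KO and in KI, although with a total over all loci the male ratio was -0.23 and the KI ratio 0.11. Rrm2, the subunit whose amount is known to limit the enzyme, had 53.4 FPKM in female KO against 44.0 in female WT, 39.5 in male KO against 12.2 in male WT and 12.7 in KI against 8.97 in Ctrl-KI, with ratios of 0.28 (female), 1.62 (male) and 0.46 (KI). Tk1, whose locus also holds Afmid, had 11.3 FPKM in female KO against 15.1 in female WT, 9.85 in male KO against 2.02 in male WT and 1.58 in KI against 1.56 in Ctrl-KI, with ratios of -0.39 (female), 1.85 (male) and 0.01 (KI). Its male intervals reached 0 in both columns. Tyms had 5.41 FPKM in female KO against 5.11 in female WT, 4.52 in male KO against 1.76 in male WT and 2.50 in KI against 1.70 in Ctrl-KI, with ratios of 0.07 (female), 0.998 (male) and 0.37 (KI).

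Chaf1a and Chaf1b encode the large and the middle subunit of the chromatin assembly factor, which deposits histones on new DNA, and Uhrf1 directs the methyltransferase that copies DNA methylation. This role had the highest male median, with 0.64 in females, 1.86 in males and 0.18 in the KI table. Chaf1b (mm9 chr16:93884146-93906351) had 3.30 FPKM in female KO (deposited interval 0.843 to 5.75), against 1.02 FPKM in female WT (interval 0.0196 to 2.02), and 5.76 FPKM in male KO (deposited interval 0.319 to 11.2), against 0.863 FPKM in male WT (interval 0 to 2.02). Both pairs of intervals overlapped, and the value in KI was 0.761 FPKM in KI and 0.558 FPKM in Ctrl-KI, with ratios of 1.09 (female), 1.86 (male) and 0.18 (KI). Uhrf1 had 3.02 FPKM in female KO against 1.57 in female WT, 9.94 in male KO against 1.67 in male WT and 1.61 in KI against 1.20 in Ctrl-KI, with ratios of 0.64 (female), 2.03 (male) and 0.25 (KI). Chaf1a had 2.99 FPKM in female KO against 1.79 in female WT, 7.25 in male KO against 1.60 in male WT and 2.03 in KI against 1.72 in Ctrl-KI, with ratios of 0.52 (female), 1.67 (male) and 0.16 (KI). All 3 genes were above their control in all 3 comparisons.

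The E2F genes differed among themselves. E2f1 and E2f2 encode activators, and E2f7 and E2f8 encode atypical members that repress transcription in mouse. The role's median was -0.28 in females, 0.28 in males and -0.16 in the KI table. E2f8 (mm9 chr7:56121799-56136411) had the lowest ratio of the genes counted in each of the 3 comparisons, with 5.28 FPKM in female KO against 8.30 in female WT, 7.20 in male KO against 12.6 in male WT and 9.58 in KI against 12.4 in Ctrl-KI, and ratios of -0.57 (female), -0.73 (male) and -0.34 (KI). The intervals overlapped in all 3 comparisons. E2f2 had 1.58 FPKM in female KO against 2.06 in female WT, 6.94 in male KO against 8.30 in male WT and 6.57 in KI against 7.44 in Ctrl-KI, with ratios of -0.25 (female), -0.23 (male) and -0.16 (KI). E2f7 was scarce in every column, with 1.27 FPKM in female KO against 0.349 in female WT, 1.70 in male KO against 0.169 in male WT and 0.220 in KI against 0.122 in Ctrl-KI, and ratios of 0.75 (female), 1.21 (male) and 0.12 (KI). E2f1 had 4.84 FPKM in female KO and 6.28 FPKM in female WT, and 14.6 FPKM in male KO and 8.02 FPKM in male WT, with ratios of -0.32 (female) and 0.79 (male). In the KI table the locus merged with Necab3 was listed at 6.83 FPKM in KI and 8.98 FPKM in Ctrl-KI, a ratio of -0.35 that is not counted with the 41.

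**Figure D4:**
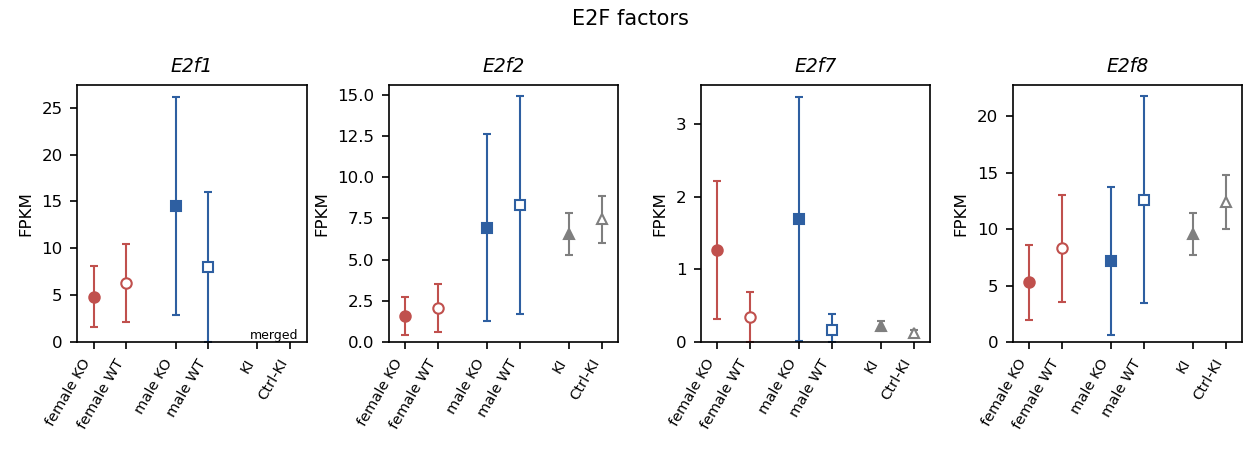
FPKM of the 4 E2F genes in the deposited columns, with the authors' bounds as bars; filled symbols are KO or KI and open symbols their controls, and E2f1 has no KI value because its locus was merged with Necab3. E2f8 and E2f2 are lower in each mutant than in its control with overlapping bars, while E2f7 is higher in both KO libraries at levels under 2 FPKM.

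Ccne1 and Ccne2 encode the E cyclins, which activate CDK2 at the start of S phase, and their median was 0.27 in females, 1.19 in males and -0.07 in the KI table. Ccne1 had 2.77 FPKM in female KO against 2.53 in female WT, 20.9 in male KO against 6.80 in male WT and 5.48 in KI against 6.84 in Ctrl-KI, with ratios of 0.09 (female), 1.49 (male) and -0.28 (KI). It was past 2-fold in male KO only and below Ctrl-KI in KI. Ccne2 shares its locus with Ints8 and its intervals reached 0 in all 6 columns; it had 2.40 FPKM in female KO against 1.48 in female WT, 1.78 in male KO against 0.486 in male WT and 0.637 in KI against 0.483 in Ctrl-KI, with ratios of 0.45 (female), 0.90 (male) and 0.14 (KI).

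Of 53 other replication genes, 52 were measured in each table. 1 of them was at least 2-fold higher in females, 21 in males and 0 in KI, none was past 2-fold on the lower side in any table, and the medians were 0.22, 0.74 and 0.07. Dbf4, the regulatory subunit of the kinase that fires origins, had 10.7 FPKM in female KO and 3.34 FPKM in female WT (ratio 1.43). Hells, a chromatin remodeller needed for DNA methylation, had 7.38 FPKM in male KO and 1.11 FPKM in male WT (ratio 1.99), and Dut, which clears dUTP, had 12.0 FPKM in male KO and 2.39 FPKM in male WT (ratio 1.93). Cdk2, the partner of the E cyclins, was on the lower side in both sexes, with 42.9 FPKM in female KO and 75.6 FPKM in female WT, and 20.1 FPKM in male KO and 34.6 FPKM in male WT. Among 13 measured genes of the replication checkpoint and repair, 0 were at least 2-fold higher in females, 2 in males and 0 in KI, with medians of 0.12, 0.28 and -0.09. Of these, Chek1, a checkpoint kinase, had 3.03 FPKM in male KO and 0.735 FPKM in male WT, and Chek2 had 5.38 FPKM in male KO and 1.37 FPKM in male WT.

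The regulators upstream of the E2F factors were mixed. Of the pocket proteins, G1 cyclins, CDKs, CDK inhibitors and other E2F and DP factors, 20, 18 and 18 were measured in the female, male and KI tables. Past 2-fold lay 1, 5 and 1 of them on the higher side and 1, 3 and 1 on the lower, and the medians were -0.21, 0.42 and -0.02. Rb1, the retinoblastoma protein, had 27.8 FPKM in male KO and 80.1 FPKM in male WT, a ratio of -1.49. In females it was also on the lower side, with 20.2 FPKM in female KO and 37.1 FPKM in female WT, a ratio of -0.84. Cdkn1c, an inhibitor of cyclin-dependent kinases that is high in cells leaving the cycle, had 26.9 FPKM in female KO against 55.0 in female WT, 49.9 in male KO against 228 in male WT and 86.8 in KI against 267 in Ctrl-KI, with ratios of -1.004 (female), -2.17 (male) and -1.61 (KI). It was lower in every mutant, and in the KI table its intervals stood apart. Ccnd1, a cyclin of G1, had 409.7 FPKM in male KO and 43.3 FPKM in male WT, and 3.65 FPKM in female KO and 4.55 FPKM in female WT, so it was higher in KO in males and slightly lower in females. Ccnd2, another cyclin of G1, was past 2-fold on the higher side in both sexes, with ratios of 1.24 (female) and 1.45 (male).

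Markers of cell division and of differentiation differed beside the replication genes. All 10 mitosis markers were above the control in both KO comparisons, 7 of 10 at least 2-fold in females and 10 of 10 in males, with medians of 1.16 and 2.06, larger than those of the replication genes. In KI cells 0 of 9 were past 2-fold, with a median of 0.20. Mki67, a marker of cycling cells, had 13.3 FPKM in female KO against 2.65 in female WT, 7.12 in male KO against 0.939 in male WT and 0.910 in KI against 0.671 in Ctrl-KI, with ratios of 1.97 (female), 2.07 (male) and 0.19 (KI). Among muscle differentiation markers, 6 of 9 in females and 8 of 8 in males were past 2-fold on the lower side in KO, with medians of -1.40 and -2.58, and 0 of 9 in KI, with a median there of -0.05. Ckm, muscle creatine kinase, had 20.2 FPKM in female KO against 147 in female WT, 6.82 in male KO against 110.0 in male WT and 152 in KI against 143 in Ctrl-KI. Myog, a differentiation factor, had 817 FPKM in female KO against 1305 in female WT, 961 in male KO against 3424 in male WT and 2827 in KI against 3201 in Ctrl-KI. Of 8 satellite cell and myoblast markers, 0 were past 2-fold on the higher side in females, 2 in males and 0 in KI, and 1, 1 and 0 on the lower side, with medians of -0.65, -0.71 and -0.38. Pax7, a satellite cell marker, had 5.54 FPKM in female KO against 4.33 in female WT, 16.3 in male KO against 5.82 in male WT and 3.30 in KI against 3.33 in Ctrl-KI. Myog, Ckm, Myod1 and Des were present in all 6 columns, as the labelled cell type calls for.

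Genes listed as markers of cells that the sort should leave out also differed. Some of them, such as Cd34, Gsn and Tcf4 in the fibro-adipogenic list, are not particular to such cells. The 11 fibro-adipogenic markers summed to 851 FPKM in female KO and 404 FPKM in female WT, to 203 FPKM in male KO and 96.3 FPKM in male WT, and to 551 FPKM in KI and 79.7 FPKM in Ctrl-KI, and 4, 6 and 8 of them were at least 2-fold higher in the mutant. In the KI table Col1a1, a collagen, had 158 FPKM in KI and 0.515 FPKM in Ctrl-KI. The endothelial markers summed to 40.2 FPKM in female KO and 24.8 FPKM in female WT, to 71.1 FPKM in male KO and 2.10 FPKM in male WT, and to 9.72 FPKM in KI and 2.79 FPKM in Ctrl-KI, with 0 of 11, 4 of 11 and 1 of 10 at least 2-fold higher. In males Emcn, an endothelial surface protein, had 40.6 FPKM in male KO and 0.0268 FPKM in male WT. The immune markers summed to 16.4 FPKM in female KO and 9.21 FPKM in female WT, to 9.26 FPKM in male KO and 1.48 FPKM in male WT, and to 33.4 FPKM in KI and 1.03 FPKM in Ctrl-KI, with 1 of 8, 1 of 7 and 1 of 7 at least 2-fold higher. In the KI table Lyz2, a macrophage enzyme, had 31.0 FPKM in KI and 0.282 FPKM in Ctrl-KI. Lum was listed at 0 in male KO, male WT and Ctrl-KI, and Ptprc, the pan-leukocyte antigen, at 0 in female WT and at 0.00565 FPKM in female KO. The part of these cells in the replication genes' values was not tested.

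**Figure D5:**
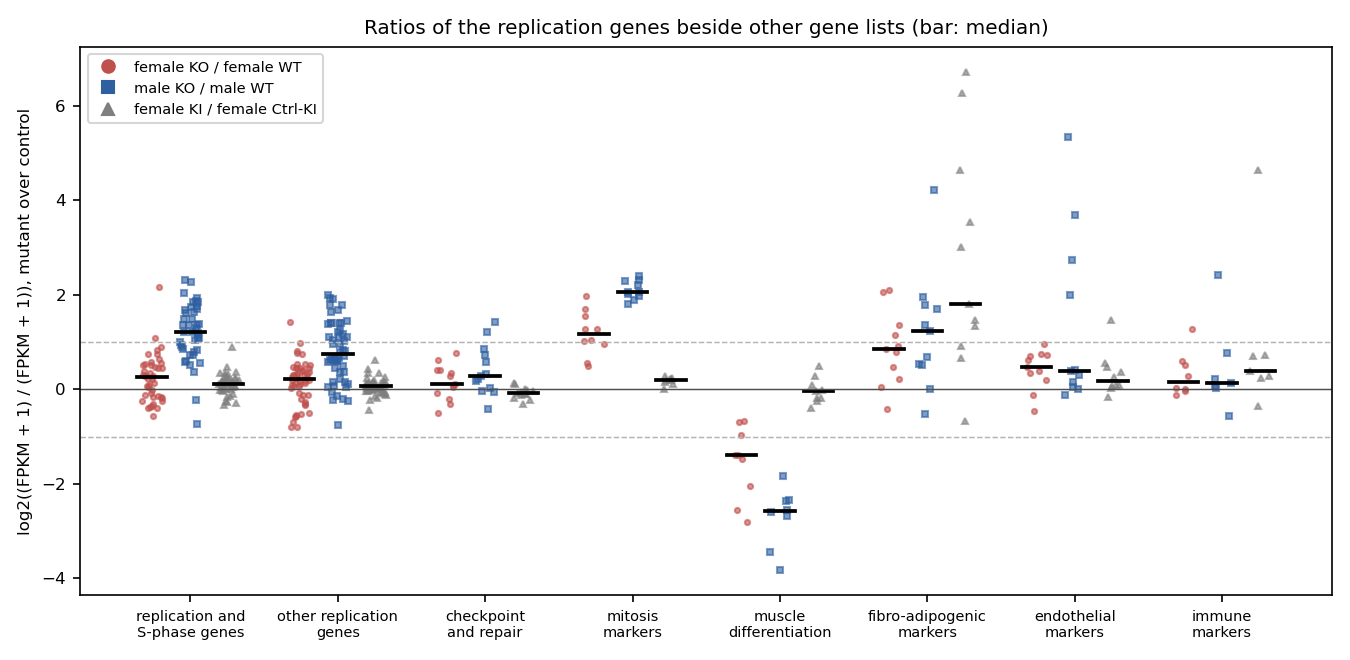
Ratios (log2, y axis) of the 42 replication genes and of 7 other lists in female KO over female WT (circles), male KO over male WT (squares) and KI over Ctrl-KI (triangles), 1 point per gene, with black bars at the medians and dashed lines at 2-fold. In males the replication genes have a median of 1.21, between the mitosis markers at 2.06 and the other replication genes at 0.74, while muscle differentiation markers lie at -2.58. The fibro-adipogenic markers have a male median of 1.23, close to that of the replication genes.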

How the data were processed

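Per the labels' protocols, total RNA of sorted, differentiating myoblasts was sequenced; libraries were grouped by their titles. The submitters' processing notes name mm9 and, with no roles given, TopHat2 (version 2.0.12), Bowtie2 (version 2.2.4), Cuffdiff, Cufflinks (version 2.2.1), edgeR, HTSeq (version 0.6.1) and bedtools (version 2.16.2). Per the file headers, the authors deposited FPKM with a lower and an upper bound and a status for each of 2 columns in 3 gene tables; the confidence level and strand setting are not given in the sources used here. FPKM is not a count, and read depth is unknown. All columns were used (0 unmapped).

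Loci with a symbol and status OK were kept, starts printed 1 higher because 210 of 211 microRNA loci had the right width only so. Ratios used a pseudocount of 1 FPKM within a table, since tables were estimated separately. limma 3.58.1 (R 4.3.3) tested the female and male ratios against 0, with a trend, over genes with a mean of at least 1 FPKM, with Benjamini-Hochberg adjustment at 0.05. A p there rests on the spread between 2 sexes with 1 library per group, drawn by limma towards a trend over all genes. Tables and figures used python 3.11.15, pandas 2.3.3, numpy 2.4.6 and matplotlib 3.10.9.

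The planned test across KI replicates could not be run on pooled columns. Members and lists were chosen with earlier results of these data known. Members past 2-fold in a KO table or at the end of their role were named with all columns. Of other lists, the plan was to name the 2 highest and lowest, with Kdm6a, Mki67, Myog, Ckm and Pax7. Not all of these were named above. Among those left out are Atad2, Pold2, Cdk6, Ccnd3, Parp1, Rad17, Atm, Birc5 and Kif11. Other genes named (Emcn, Lum, Ptprc, Myod1, Des and further members) were added after their values were seen. Alternatives were other pseudocounts, filters and scalings, and, chosen after seeing the data, leaving out members whose locus holds another gene.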

Additional observations from a re-analysis of the deposited data

Results flagged for a closer look

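6 replication genes were below WT in female KO and at least 2-fold above WT in male KO. The male minus the female log2 ratio was 2.24 for Tk1, 1.56 for Mcm2, 1.39 for Rfc5, 1.34 for Rpa1, 1.27 for Cdc45 and 1.24 for Fen1. In each case the difference rests on 1 library per sex and genotype, and it was not tested. The female ratios of Rfc5 (-0.01) and Cdc45 (-0.12) were close to 0, so for these the opposite direction is a matter of a small difference. Tk1 shares its locus with Afmid, and its male intervals reached 0. Mcm2, with a locus of its own, had 2.47 FPKM in female KO and 3.45 FPKM in female WT, and 20.5 FPKM in male KO and 8.34 FPKM in male WT. The pattern depends on the scaling. With a total over loci with a symbol, 4 genes met it, since the female ratios of Cdc45 and Rfc5 became 0.02 and 0.14. With a total over all loci none did: the male minus the female ratio was then 1.21 for Tk1, 0.69 for Mcm2, 0.45 for Rfc5, 0.40 for Rpa1, 0.41 for Cdc45 and 0.36 for Fen1. Loci without a symbol held 86.2% of FPKM in male KO and 72.9% in male WT.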

How the results depend on the processing

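The counts of genes at least 2-fold higher and the medians were recomputed under each alternative. No share of all loci past 2-fold is given for the alternatives, so these counts have no background of their own. A pseudocount of 0.1 FPKM gave 6 in females and a male median of 1.58. A pseudocount of 5 FPKM gave 1 and a median of 0.12 in females, 11 and 0.62 in males. A mean of at least 5 FPKM gave 1 of 18 and -0.11 in females, 15 of 24 in males and a median of 0.013 in the KI table. TPM over loci with a symbol gave 6 and 0.45 in females, a male median of 1.54, and 1 and 0.24 in the KI table. TPM over all loci gave 6 and 0.45 in females, 5 higher, 1 lower and 0.47 in males, 1 lower and -0.42 in the KI table, and 1 gene that rose in the joint limma fit; there the median of all genes moved to -0.71 in males and -0.78 in the KI table. Intervals stood apart for 1 gene in females, 0 in males and 1 in the KI table. The remaining 77 values kept within 1.5 times the count or 0.1 of the median, among them those without genes whose locus holds another gene (2 of 36, 23 of 36 and 0 of 32 at least 2-fold higher).

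No paired analysis was possible because the KI table holds 1 pooled column per group. Leaving out a library was not possible with 1 column per group, and a fit with 1 sex has no residual degrees of freedom. The depth is unknown, and the width of the deposited bounds, which reach 0 for 26 of 42 genes in males, limits every single value.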
